A study of Mus musculus with 6 samples.

Results

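The genes described here are those of the ILK-PINCH-parvin complex with its partner Rsu1 (Ilk, Lims1, Parva, Parvb and Rsu1), the focal adhesion adaptors Zyx, Pxn and Vasp, and the kinases Src and Csk. They were chosen by symbol, 10 of the 24346 gene symbols in the tables. RNA was sequenced from blood platelets of mice in 2 groups, homozygous knock-in mice that carry R734C in integrin β3 and wild-type mice, with 3 libraries each. The study asked which platelet mRNAs differ between these genotypes. The labels give the cell type as thrombocyte and the tissue as blood. Age, sex and strain background, any pooling of animals, and whether the libraries of a group came from separate animals are not given in the sources used here. The p-values thus speak of the variation among these 6 libraries, and that variation may be technical.

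Integrin β3 is the β chain of αIIbβ3, which binds fibrinogen on platelets, and adhesion proteins assemble at its short cytoplasmic tail. ILK is a pseudokinase that sits at such tails. PINCH1, encoded by Lims1, binds its ankyrin repeats, and a parvin binds its kinase-like domain and links the complex to actin. RSU1 joins through PINCH1. Zyxin, paxillin and VASP are adaptor and actin-regulating proteins of adhesion sites, Src is a tyrosine kinase that acts below the integrin in platelets, and Csk holds Src-family kinases inactive by phosphorylating their tail.

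Expression is given in FPKM, a fragment count corrected for transcript length and library size, so levels of different genes can be compared per length. Relative depth, read from the low values, was 0.882 to 1.05 in knock-in libraries and 1 to 1.05 in wild-type libraries, and the absolute depth is unknown. The total FPKM was 758381 to 856863 in knock-in libraries and 641278 to 708432 in wild-type libraries, so it was higher in each knock-in library. Summed erythroid markers (7 of 10 in the tables) made up 13.7% of the total FPKM in knock-in library 1 and 2.26% and 2.77% in the other knock-in libraries, against 8.73% in wild-type library 1 and 3.88% and 4.85% in the other wild-type libraries. All 8 platelet markers were present, at a sum of 44600 to 49700 FPKM in knock-in and 48200 to 50100 FPKM in wild-type libraries. Most of that sum was Pf4 and Ppbp, and of the 8 markers 2 passed as lower and 0 as higher. These were Tubb1, for platelet β1-tubulin, at -0.82 on the log2 scale (limma adjusted p = 0.00759), and Gp1ba, for a chain of the von Willebrand factor receptor, with -0.65 (limma adjusted p = 0.0139). Pf4 and Gp9 were higher in each knock-in library, at 0.29 and 0.16 on the log2 scale, and did not pass. Ppbp and Gp6 were lower in each knock-in library, at -0.25 and -0.26, and did not pass either. Summed markers of neutrophils (7 of 10 above 0 in any library) lay between 0.727 and 2.08 FPKM in knock-in and 0.252 and 2.32 FPKM in wild-type libraries. Those of B cells (3 of 6 above 0) lay between 0.196 and 0.693 FPKM in knock-in libraries and 0 and 0.185 FPKM in wild-type libraries. For T and NK cells (3 of 8 above 0) the sums were 4.95 to 8.83 FPKM in knock-in and 2.67 to 4.42 FPKM in wild-type libraries, almost all of it Nkg7. The sum for B cells and that for T and NK cells, which rests on this 1 gene, were higher in each knock-in library than in each wild-type library, and their part in the results was not tested. Camp, Elane, Mpo, Ms4a1, Cd22, Blk, Cd3d, Cd3e, Cd4, Gzma and Ncr1 were listed at 0 in every library. The monocyte and macrophage sum was 7210 to 9130 FPKM in knock-in and 7040 to 8240 FPKM in wild-type libraries, almost all of it Lyz2. Without Lyz2 it was 0.982 to 4.97 FPKM in knock-in and 2.68 to 3.92 FPKM in wild-type libraries. Itgb3 itself was 870, 803 and 903 FPKM in knock-in platelets and 1091, 1244 and 1289 FPKM in wild-type platelets. With -0.49 on the log2 scale (limma adjusted p = 0.0190) it passed as lower, and the groups did not overlap. Whether this fall bears on those of other genes was not tested. Such levels do not show whether the RNA carries R734C.

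Rsu1 and Ilk were lower in knock-in platelets and passed the test, while none of the other members passed in either direction. The test was limma on log2(FPKM + 1) over 4859 genes with a mean of at least 1 FPKM, with Benjamini-Hochberg adjustment and a threshold of 0.05. Of the 10 members 9 were tested, and 2 passed as lower and 0 as higher. Over all tested genes 8.36% passed, 3.99% as lower and 4.36% as higher. These shares depend on level. At a mean of at least 5 FPKM, 253 of 2750 tested genes passed as lower and 258 as higher, beside 3 and 0 of 8 members. The log2 fold change was below 0 in 8 of the 9 tested members, with a median of -0.32, against 51.5% of all tested genes and a median of -0.014. The members were chosen with earlier results of these data known, so these shares are no test of the set. Across the 4694 tested genes with a transcript length, log2 fold changes ran downwards with length (Spearman's rho -0.188, a description across genes, which are not independent). With that trend taken out, the log2 fold change of Rsu1 was -1.09 and that of Ilk -0.50, and both still passed (limma adjusted p = 0.00754 and 0.0207). With libraries scaled to the total without erythroid and top genes, they were -1.22 and -0.57 for Rsu1 and Ilk (limma adjusted p = 0.00718 and 0.0152). That scaling also moved the median of all tested genes to -0.065. With median-of-ratios scaling, they were -1.15 and -0.50 for Rsu1 and Ilk (limma adjusted p = 0.00716 and 0.0208). FPKM is relative to all RNA of a library, and in such bulk samples fewer cells of a type and less RNA per cell cannot be told apart.

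**Figure D1:**
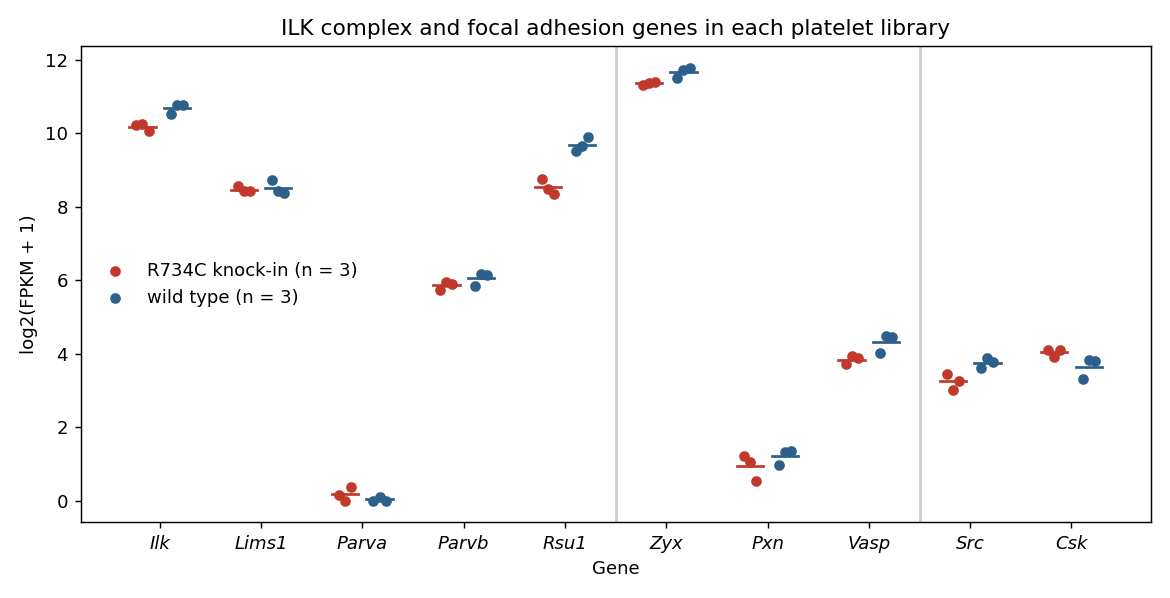
Level of each gene in every library, as log2(FPKM + 1), with knock-in libraries in red and wild-type libraries in blue (points, 3 each; short lines, means). Grey lines part the ILK complex, the adaptors and the kinases; Rsu1 shows the widest gap between genotypes, and Parva and Pxn lie near 0 in both.

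Ilk, the scaffold at the centre of the complex, measured 1196, 1223 and 1073 FPKM in knock-in platelets, against 1482, 1752 and 1757 FPKM in wild-type platelets. Every knock-in library was below every wild-type library. The mean fell to 1164 ± 79.8 FPKM in knock-in platelets, against 1664 ± 157 FPKM in wild-type platelets (SD, n = 3 each), a log2 fold change of -0.51 (SE 0.099, limma adjusted p = 0.0190). The gene spans bases 105736592 to 105742925 of chromosome 7 (GRCm38, plus strand), and its exons overlap those of Taf10 and Rrp8 on the other strand, over 76.7% and 12.9% of their length, and the libraries do not mark strand. The deposited levels of these neighbours were low beside that of Ilk. Taf10 averaged 12.7 ± 4.36 FPKM in knock-in and 10.8 ± 2.87 FPKM in wild-type platelets (SD, n = 3 each). Rrp8 averaged 3.02 ± 0.577 FPKM in knock-in and 3.92 ± 1.33 FPKM in wild-type platelets (SD, n = 3 each). Taf10 also has a transcript near-identical to that of Ilk, at 99.8% over 418 bases. How reads of the shared bases were split between the genes was not tested, so the level of Ilk is less certain. The Ilk call was lost without knock-in library 2 (limma adjusted p = 0.0653) or 3 (0.0885), or wild-type library 2 (0.0908) or 3 (0.0873), with no filter on low values (0.0788) and without the variance trend (0.104). Without both libraries richest in haemoglobin mRNA, knock-in 1 and wild-type 1, it was -0.61 with an adjusted p of 0.00178 in limma.

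Rsu1, a leucine-rich repeat protein first known as a Ras suppressor, measured 429, 360 and 327 FPKM in knock-in platelets, against 735, 809 and 961 FPKM in wild-type platelets. The highest knock-in library lay well under the lowest wild-type library. It averaged 372 ± 51.7 FPKM in knock-in and 835 ± 115 FPKM in wild-type platelets (SD, n = 3 each), with a log2 fold change of -1.16 (SE 0.13, limma adjusted p = 0.00759). Of the members, Rsu1 alone was past the 2-fold limit that the study's design text names, a limit that 3.11% of all tested genes passed and 1.67% passed as lower. Rsu1 spans bases 13076821 to 13271415 of chromosome 2 (minus strand), where no other annotated exon overlaps its exons, and it has no near-identical transcript. Its call was lost without knock-in library 3 (limma adjusted p = 0.0507) and without the variance trend (0.0623), and its log2 fold change ranged from -1.36 to -1.06 over 19 alternatives.

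Lims1, which encodes PINCH1, did not differ beyond the spread between libraries. It measured 376, 343 and 345 FPKM in knock-in platelets and 421, 348 and 329 FPKM in wild-type platelets, so the groups overlapped. The log2 fold change was -0.038, with a 95% interval from -0.29 to 0.22 (limma adjusted p = 0.876), an interval that leaves out the change seen for Rsu1. Its sign is not fixed, since it was 0.067 without wild-type library 1.

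Among the parvins, platelet RNA held almost only Parvb, the β form. It measured 51.9, 60.5 and 59.1 FPKM in knock-in platelets and 56.7, 71.1 and 69.3 FPKM in wild-type platelets, with overlapping groups (log2 fold change -0.19, 95% interval -0.49 to 0.11, limma adjusted p = 0.412). Parva, the α form, was 0.111, 0 and 0.302 FPKM in knock-in libraries and 0, 0.0696 and 0 FPKM in wild-type libraries. It did not reach the filter and was not tested, and no fold is given for it. Parvg, the γ form of blood cells, was at most 0.296 FPKM in knock-in and 0.724 FPKM in wild-type libraries. Parvb made up 98.9% to 100% of the summed parvin FPKM in the 6 libraries, and Lims1 99.3% to 100% of the summed FPKM of Lims1 and its paralog Lims2.

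Levels relative to Ilk differed between the partners. The ratio of Rsu1 to Ilk within a library was 0.358, 0.294 and 0.305 in knock-in platelets, against 0.496, 0.462 and 0.547 in wild-type platelets, and the groups did not overlap (log2 difference -0.65, two-sided exact permutation p = 0.1). A comparison of 3 with 3 libraries cannot give a smaller exact p. Over all tested genes, 2.63% had a ratio to Ilk that was lower in every knock-in library than in every wild-type library. The ratio of Parvb to Ilk was 0.0434, 0.0495 and 0.0551 in knock-in and 0.0383, 0.0406 and 0.0395 in wild-type platelets. It was higher in each knock-in library (log2 difference 0.32, exact permutation p = 0.1). That direction was common where Ilk itself was lower, as 39.7% of all tested genes had a ratio to Ilk that was higher without overlap. The ratio of Lims1 to Ilk was 0.314, 0.281 and 0.321 in knock-in and 0.284, 0.198 and 0.187 in wild-type platelets. These groups overlapped, through knock-in library 2 and wild-type library 1 (log2 difference 0.47, exact permutation p = 0.2). The Lims1 difference was thus no smaller than that of Parvb.

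**Figure D2:**
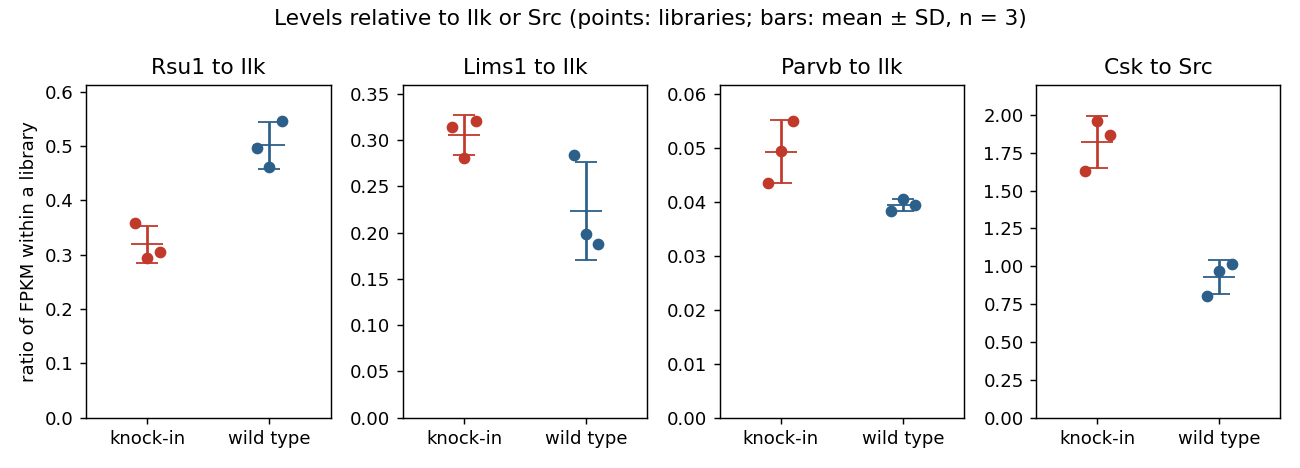
Ratio of FPKM within each library for Rsu1, Lims1 and Parvb relative to Ilk and for Csk relative to Src, with knock-in left of wild type in each panel (points, libraries; bars, mean ± SD, n = 3). Rsu1 to Ilk is lower and Csk to Src higher in every knock-in library, and Lims1 to Ilk overlaps between the groups.

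In order of level, wild-type platelets held Zyx, Ilk, Rsu1, Lims1, Parvb, Vasp, Src, Csk, Pxn and Parva, from high to low. There the neighbours in that order did not overlap between libraries except Src and Csk. In knock-in platelets Rsu1 came level with Lims1, at 372 ± 51.7 FPKM beside 355 ± 18.5 FPKM (SD, n = 3 each), with overlapping libraries. Csk stood above Vasp there, with overlap, and Src below both.

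The sequences before a start site of Rsu1, Ilk and Lims1 are shown because Rsu1 and Ilk passed the test and Lims1, their partner in the same complex, did not. They come from RefSeq on GRCm38.p6, where 8 of the 10 members had an entry, and Parva and Pxn are named only. Capitals mark a match, on either strand, to 4 motifs. The letters searched were AGATAA for GATA factors, CCGGAA for factors of the ETS family and TGTGGT for RUNX factors, and the fourth was the CArG box of serum response factor. No match overlapped that of another motif. The first 3 lines hold the last 150 bases before the start, for Rsu1 chr2:13271416-13271565 on the minus strand, for Ilk chr7:105736440-105736589 on the plus strand, the first of its 2 listed starts, and for Lims1 chr10:58371304-58371453 on the plus strand, the last of its 3 listed starts. The fourth line holds 30 bases from the stretch after the Rsu1 start, chr2:13271368-13271397. It does not begin at the start itself but lies around the CArG box at bases 29 to 38.
Rsu1: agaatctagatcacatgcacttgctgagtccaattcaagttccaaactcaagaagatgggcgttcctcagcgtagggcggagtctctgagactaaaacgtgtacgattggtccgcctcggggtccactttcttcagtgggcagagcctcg
Ilk: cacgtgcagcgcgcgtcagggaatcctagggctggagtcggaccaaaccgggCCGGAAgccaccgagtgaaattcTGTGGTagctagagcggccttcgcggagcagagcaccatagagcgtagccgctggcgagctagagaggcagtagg
Lims1: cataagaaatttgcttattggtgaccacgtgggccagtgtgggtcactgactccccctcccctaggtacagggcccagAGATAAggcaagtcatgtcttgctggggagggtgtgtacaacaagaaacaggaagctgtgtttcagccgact
Rsu1 after the start: aaacagttctCCTAATTTGGgaagtgtcag

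The Ilk stretch held an ETS match that begins 98 bases before the start and a RUNX match that begins 75 bases before it. The Lims1 stretch held a GATA match that begins 72 bases before its start. The windows of the other 2 Lims1 starts also held matches, an ETS match that begins 248 bases before the first start and a GATA match that begins 1 base before the second. The window of Rsu1, from 250 bases before to 50 after the start, held a CArG box at bases 29 to 38 after the start and no match to the other letters. Of the other members with an entry, Src held an ETS match at bases 13 to 18 after the start, and Parvb, Zyx, Vasp and Csk held none of the 4 motifs. Over all 32851 windows of this length, 11.2% held the GATA letters, 14.9% the ETS letters, 16.8% the RUNX letters and 1.63% a CArG box. Such matches describe the letters of these windows and say nothing of a factor's binding.

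Among the adaptors, Zyx was the most abundant member, and the difference between genotypes did not pass the test. Zyxin is a LIM protein that moves to strained actin fibres and brings Ena/VASP proteins there. It measured 2577, 2657 and 2687 FPKM in knock-in platelets, against 2924, 3415 and 3549 FPKM in wild-type platelets. Every knock-in library was below every wild-type library, with a log2 fold change of -0.32 (SE 0.092, limma adjusted p = 0.0726). It passed as lower under 7 of 19 alternatives, with adjusted p between 0.00370 and 0.0499 in limma, among them without wild-type library 1 (0.0287). Its exons overlap those of Epha1 on the other strand over 4.38% of their length, and Epha1 averaged 0.792 ± 0.301 FPKM in knock-in and 0.905 ± 0.230 FPKM in wild-type platelets (SD, n = 3 each).

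Vasp, which encodes an actin filament elongation factor and a known substrate of the cyclic nucleotide kinases in platelets, measured 12.1, 14.2 and 13.8 FPKM in knock-in and 15.3, 21.3 and 20.9 FPKM in wild-type platelets. The groups did not overlap, and with a log2 fold change of -0.48 (SE 0.18) the test was not passed (limma adjusted p = 0.129). Vasp held 87.6% to 95.8% of the summed FPKM of the Ena/VASP family, and its paralogs Enah and Evl were at most 1.30 FPKM in any library.

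Pxn, for the scaffold paxillin, was near the filter. It measured 1.31, 1.07 and 0.450 FPKM in knock-in and 0.950, 1.49 and 1.57 FPKM in wild-type platelets, and its knock-in mean was 0.943 FPKM, under the limit of 1. The groups overlapped (log2 fold change -0.28, 95% interval -0.94 to 0.37, limma adjusted p = 0.604). Most RNA of the paxillin family came from Tgfb1i1, for the paxillin relative Hic-5, at 95.5% to 98.9% of the summed FPKM of Pxn, Tgfb1i1 and Lpxn. Tgfb1i1 measured 39.7, 46.3 and 39.2 FPKM in knock-in and 31.9, 31.7 and 36.0 FPKM in wild-type platelets. It was higher in each knock-in library with a log2 fold change of 0.32, short of the threshold (limma adjusted p = 0.167).

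**Figure D3:**
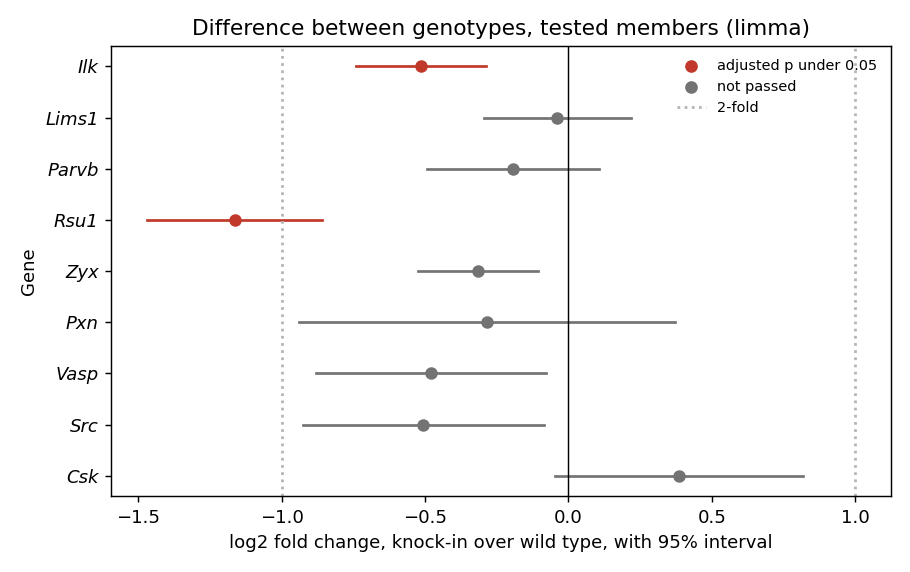
Log2 fold change of knock-in over wild type for the 9 tested members, with its 95% interval from limma; red marks an adjusted p under 0.05 and dotted lines a 2-fold change. Rsu1 (-1.16) and Ilk (-0.51) are red, and Csk (0.39) is the member with a value above 0.

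The kinase Src and its inhibitor Csk had values in opposite directions, and neither difference passed. Src measured 9.97, 7.13 and 8.60 FPKM in knock-in and 11.2, 13.7 and 12.7 FPKM in wild-type platelets, lower in each knock-in library (log2 fold change -0.51, SE 0.18, limma adjusted p = 0.127). Csk measured 16.2, 14.0 and 16.1 FPKM in knock-in and 8.98, 13.3 and 12.9 FPKM in wild-type platelets. It was higher in each knock-in library (log2 fold change 0.39, SE 0.19, limma adjusted p = 0.245), and the value was 0.18 without both libraries richest in haemoglobin mRNA. The ratio of Csk to Src was 1.63, 1.96 and 1.87 in knock-in platelets, against 0.804, 0.967 and 1.02 in wild-type platelets. The groups did not overlap (fold 1.96, exact permutation p = 0.1). A ratio to Src that was higher without overlap was seen for 37.2% of all tested genes, so this direction of the ratio was a common one.

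In all, 5 of the 9 tested members were lower and 1 was higher in knock-in platelets with no shared range. Among all tested genes, 15.8% were lower and 14.9% higher in this way, 30.7% together.

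The wider set of adhesion genes was taken as 69 genes in 7 lists by role. Of these, 37 were tested, and 9 passed as lower and 0 as higher, where 3.99% of all tested genes passed as lower. For these lists, a gene that fell is one that passed as lower. Their median log2 fold change was -0.29, and 28 of the 37 were below 0. The lists were chosen with earlier results of these data known, so these shares are no test of the lists. The share depends on level too: at a mean of at least 5 FPKM, 253 of all 2750 tested genes fell, beside 14 of 28 in the lists. Of the 37 tested genes, 19 were lower and 1 was higher in knock-in platelets with no shared range, beside 15.8% and 14.9% of all tested genes. The 9 genes that fell were among the 19, which adds no support, since the same values picked them. The 9 falls became 3 with no filter on low values, 14 at a mean of at least 5 FPKM, 14 with scaling to the total without erythroid and top genes, and 0 without the variance trend (limma). With knock-in library 2 left out they became 4, with knock-in library 3 left out 0, and with wild-type library 2 or 3 left out 1 or 3. Gene by gene, of 19 alternatives Nck2 passed under 17, Lasp1 and Fermt3 under 16, Lcp2 under 14, Vcl and Dok2 under 12, Tln1 under 10, Actn4 under 8 and Fyn under 7.

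Of 3 tested genes among paralogs and close partners, 1 fell. That was Nck2, whose adaptor protein binds a LIM domain of PINCH1. It measured 117, 94.1 and 95.7 FPKM in knock-in platelets and 178, 228 and 194 FPKM in wild-type platelets (log2 fold change -0.96, SE 0.13, limma adjusted p = 0.00846). All knock-in libraries lay below all wild-type libraries. A near-identical transcript, Gm6226, matches it at 97.1% over 1146 bases, so its level is less certain.

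Integrin and actin linkers had the most falls, 4 of 6 tested genes. Fermt3, for the integrin activator kindlin-3, measured 1474, 1641 and 1577 FPKM in knock-in and 2233, 2362 and 2423 FPKM in wild-type platelets (log2 fold change -0.58, limma adjusted p = 0.00849). Vcl, for the actin linker vinculin, measured 66.3, 56.8 and 71.2 FPKM in knock-in and 109, 100.2 and 88.4 FPKM in wild-type platelets (log2 fold change -0.61, limma adjusted p = 0.0272). Tln1, for talin-1, which activates integrins from inside the cell, had -0.40 on the log2 scale (limma adjusted p = 0.0437). Actn4, for an α-actinin that crosslinks actin, had -0.35 (limma adjusted p = 0.0487). Flna, for the actin crosslinker filamin A, was the most abundant of these genes not to pass and had -0.29 (limma adjusted p = 0.115). Exons of Vcl overlap those of Ap3m1 on the other strand over 25.5% of their length, and smaller overlaps touch Tln1, Fermt3 and Actn4.

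**Figure D4:**
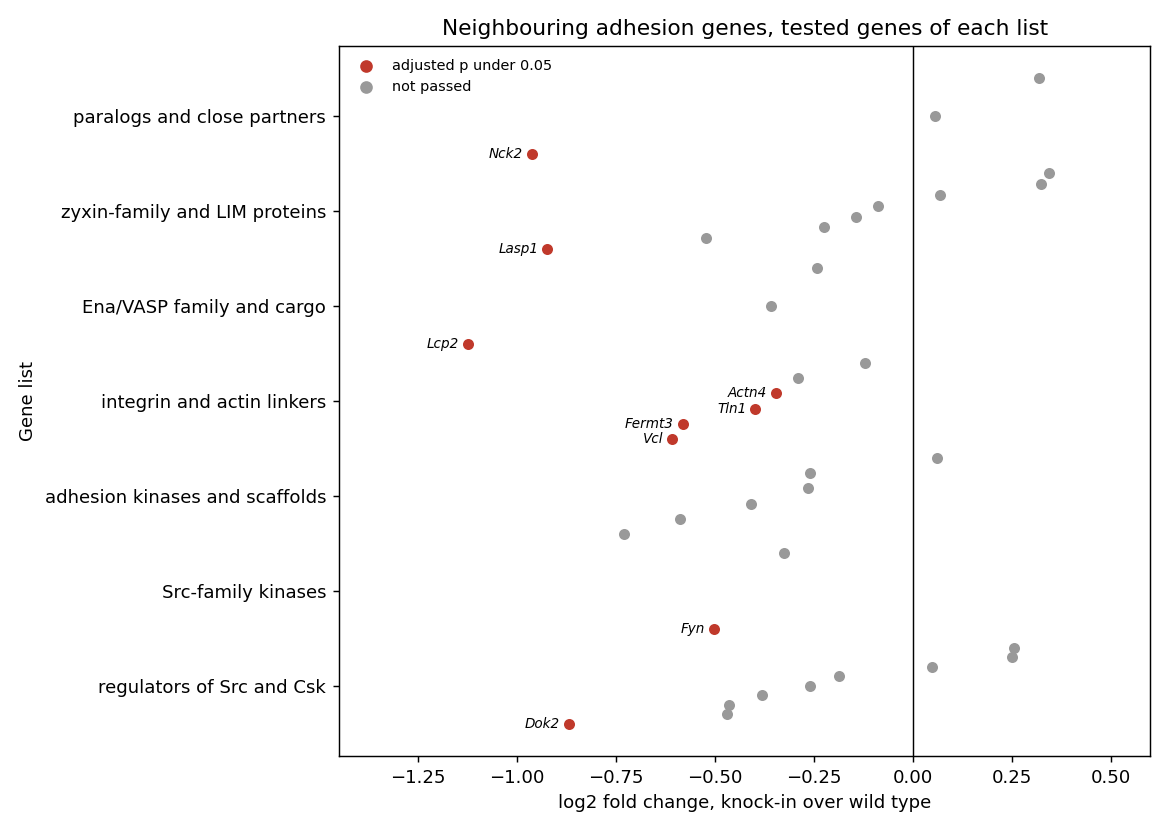
Log2 fold change of knock-in over wild type for the 37 tested genes of the 7 adhesion lists, 1 point a gene; red and named where the limma adjusted p was under 0.05. All 9 red points lie below 0, with Lcp2 (-1.12) farthest out.

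In 2 further lists 1 gene each fell. In the list of the Ena/VASP family and its partners, the 3 tested genes were Pfn1, Fyb and Lcp2. The family members listed there, Enah and Evl, did not reach the filter. Lcp2, for the adaptor SLP-76, measured 20.7, 23.3 and 14.5 FPKM in knock-in and 39.7, 41.2 and 48.4 FPKM in wild-type platelets (log2 fold change -1.12, limma adjusted p = 0.0124). The actin monomer binder gene Pfn1, the most abundant there, had -0.36 and lay at the threshold (limma adjusted p = 0.0502). Among 8 tested LIM protein genes, Lasp1, whose product binds actin, measured 27.6, 25.2 and 28.0 FPKM in knock-in and 55.9, 54.5 and 45.9 FPKM in wild-type platelets (limma adjusted p = 0.00898). A near-identical transcript, Gm4875, matches Lasp1 at 95.7% over 792 bases. Pdlim1, the most abundant of that list, had -0.14 and did not pass (limma adjusted p = 0.270). It too has a near-identical transcript, Gm5864, at 97% over 981 bases.

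Of Src-family kinase genes, 2 of 7 were tested and 1 fell. Lyn and Fyn were far above Src: Fyn measured 42.6, 48.1 and 52.9 FPKM in knock-in and 67.2, 69.3 and 67.4 FPKM in wild-type platelets (log2 fold change -0.50, limma adjusted p = 0.0381). Lyn averaged 280 ± 17.7 FPKM in knock-in and 351 ± 11.2 FPKM in wild-type platelets (SD, n = 3 each), and its -0.33 did not pass (limma adjusted p = 0.0590). A near-identical transcript, Gm11787, matches Lyn at 98.8% over 1050 bases. Blk and Yes1 were listed at 0 in every library. Of 9 tested regulators of Src and Csk, 1 fell, Dok2, for an adaptor that dampens tyrosine kinase signals, at 13.9, 11.6 and 14.8 FPKM in knock-in and 24.1, 20.3 and 32.9 FPKM in wild-type platelets (limma adjusted p = 0.0347). The phosphatase gene Ptpn1, the most abundant of them, had -0.46 and did not pass (limma adjusted p = 0.0620). Of 6 tested adhesion kinases and scaffolds none passed, and the most abundant, the focal adhesion kinase relative Ptk2b, had -0.41 (limma adjusted p = 0.0647).

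The profiles most like those of the called members were sought over the 6 libraries among 2014 genes with a mean of at least 10 FPKM, by the root mean square difference of centred log2(FPKM + 1). Nearest to Rsu1 were Selp, for P-selectin, at 0.118, and Ppif, for a mitochondrial cyclophilin, and Orai1, for a calcium channel, both at 0.128. Selp measured 47.0, 39.9 and 35.7 FPKM in knock-in and 70.4, 76.6 and 88.9 FPKM in wild-type platelets. Nearest to Ilk were Slc25a5, for a mitochondrial nucleotide carrier, at 0.0161, Tuba4a, for an α-tubulin, at 0.0441, and Arpc2, for an Arp2/3 subunit, at 0.0587. Slc25a5 measured 20.3, 21.2 and 18.5 FPKM in knock-in and 25.4, 30.5 and 29.9 FPKM in wild-type platelets. Its log2 fold change of -0.49 did not pass (limma adjusted p = 0.0661). The measure takes in the gap between genotypes, so that these nearest genes are lower in knock-in platelets is built in. Slc25a5 and Arpc2 have near-identical transcripts, and exons of Tuba4a, Selp and Ppif overlap genes on the other strand, so these levels are less certain.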

How the data were processed

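TRIzol and miRNeasy Micro extraction, SMART-Seq HT cDNA and Nextera XT libraries were used, per the labels' protocols; strand is not kept by these kits. The authors deposited FPKM per gene symbol, 1 table per library. The submitters' processing notes name Cuffdiff 2.2.1, TopHat2 2.1.1, SAMtools 0.1.18, Bowtie2 2.2.8 and build mm10, and the settings are not given in the sources used here. A listed 0 may be a failed estimate. Groups and numbers came from the sample titles.

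Genes with a mean of at least 1 FPKM were tested on log2(FPKM + 1) in limma 3.58.1 (R 4.3.3) with a variance trend, no covariate and Benjamini-Hochberg adjustment over all 4859 genes. Fold changes on this scale understate those of low genes. Ratios were tested by exact permutation over libraries (scipy 1.17.1). Coordinates and overlaps are from GENCODE M21 (GRCm38); near-identical transcripts were sought with blastn at 95% identity over 200 bases. Members and lists were chosen with earlier results of these data known. The rule for names took all members and, in each list, each called gene and the most abundant gene not called. Scaling, filters, pseudocounts, variance options, a replicate term and left-out libraries were tried as alternatives.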

Additional observations from a re-analysis of the deposited data

How the results depend on the processing

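Of the members, Rsu1, Ilk, Parvb, Zyx, Pxn, Vasp, Src and Csk kept the sign of their log2 fold change under each alternative in which they were tested, and Lims1 became 0.024 without both libraries richest in haemoglobin mRNA, 0.045 with the trend on transcript length taken out, and -0.11 to 0.067 when 1 library was left out. The first 2 of these settings were chosen after seeing the data. The 2 members called became 1 with no filter on low values and 0 without the variance trend, and 0 to 3 when 1 library was left out. For the adhesion lists, 9 calls became 3 with no filter, 14 at a mean of at least 5 FPKM, 14 with scaling to the total without erythroid and top genes, 0 without the variance trend and 0 to 7 with 1 library left out. Over all genes, 406 calls became 107 with no filter, 0 without the variance trend (1197 genes at an unadjusted p under 0.05 in limma), 728 without both haemoglobin-rich libraries and 0 to 610 with 1 library left out. The 0 was without knock-in library 3 (994 genes at an unadjusted p under 0.05). With scaling to the total without erythroid and top genes, 58.8% of 437 calls were lower, against 47.8% of 406. The cause of these changes was not tested. Replicate numbers are shared by the groups. Deviations of same-numbered libraries correlated at 0.158, 0.0235 and 0.141, and those of libraries with unlike numbers at -0.16 to 0.0674. Not every library correlated best with its own number, as knock-in library 2 was closer to wild-type library 3 (0.0674). These values do not settle whether the numbers pair the samples. With the replicate block 306 genes, 2 members and 6 adhesion genes were called. The ratio of Rsu1 to Ilk, of Lims1 to Ilk, of Parvb to Ilk and of Csk to Src kept its sign under the pseudocount, the replicate block and each left-out library, where the tests are too small to pass. The absolute depth is unknown, so members under 1 FPKM, such as Parva, cannot be compared.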
